A study of Mus musculus with 30 samples.

Results

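The genes examined were 9 products and brakes of the ERK branch of MAP kinase signalling, namely the phosphatase genes Dusp4, Dusp5 and Dusp6, the Sprouty and Spred genes Spry1, Spry2, Spry4 and Spred1, and the Ets factor genes Etv4 and Etv5. They were taken by name, and all 9 were found among the 41128 genes counted in each tissue. RNA was sequenced from 14 aortae and 16 kidneys of male mice with the C57Bl6J background named in the labels. WT mice had no loxP sites but did carry a tamoxifen-inducible Cre, driven in smooth muscle by the Smmhc (Myh11) promoter, and KO mice carried that Cre together with a floxed Egfr. All mice of all groups, controls included, had received tamoxifen at 1 mg per day for 5 days. From 7 days later, at an age of 6 weeks, they were fed high-fat diet (HFD) or standard-fat diet (SFD) for 18 weeks. In the aorta there were 3 WT-SFD, 4 WT-HFD, 3 KO-SFD and 4 KO-HFD mice, and in the kidney 4 mice in each group. By their numbers, 3 mice were sampled in both tissues, and the tissues were never compared by a test.

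ERK is the last kinase of a cascade that starts at receptor tyrosine kinases such as the EGF receptor and runs through a relay of kinases. Active ERK switches on genes whose products turn the cascade down again: dual-specificity phosphatases take the phosphate groups off MAP kinases, and Sprouty and Spred proteins act between the receptor and the kinases. Etv4 and Etv5 are Ets family transcription factors of the Pea3 group, whose transcripts follow ERK activity, in the kidney best known from the branching of the ureteric bud and collecting ducts. The levels of these transcripts are therefore often read together as a record of ERK output, although each also has other inputs.

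The targeted gene served as a check of the labels. Egfr, at chr11:16752203-16918158 (GRCm38, plus strand), had 46.7, 39.5 and 54.3 FPM (counts on the CPM scale of edgeR on TMM-corrected library sizes) in the 3 WT-SFD aortae and 26.8, 35.5 and 28.0 in the 3 KO-SFD aortae. In the WT-HFD aortae it had 65.1, 57.0, 51.2 and 57.0 FPM and in the KO-HFD aortae 27.5, 40.6, 39.7 and 33.4 FPM. On either diet all KO aortae lay below all WT aortae. KO against WT gave a log2 fold change of -0.64 (SE 0.17, edgeR adjusted p = 0.531) on SFD and -0.70 (SE 0.14, edgeR adjusted p = 0.130) on HFD, so neither passed an adjusted p of 0.05. Averaged over both diets, a contrast chosen after the values had been seen, it was -0.67 (SE 0.11, edgeR adjusted p = 0.0132), and without KO-SFD replicate 3 it was -0.62 and lost its call (edgeR adjusted p = 0.0916). In the kidney Egfr was 50.4 ± 8.13 FPM in WT-SFD and 53.6 ± 5.77 FPM in KO-SFD (mean ± SD, n = 4 each), and the log2 fold changes of KO against WT were 0.09 (SE 0.13) on SFD and -0.09 (SE 0.13) on HFD. The counts sum over the whole gene and every cell type of the tissue, and in bulk RNA fewer cells of a type and less RNA per cell cannot be told apart.

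The labelled tissues carried their defining transcripts. In the aorta the 6 smooth muscle markers summed to 9791 to 17666 FPM, led by Acta2, and in the kidney the 5 proximal tubule markers summed to 8764 to 15506 FPM, led by Slc34a1. The smooth muscle markers Tagln and Cnn1 are listed at 0 in every library, as are all genes of their chromosome 9 and of chromosomes X, Y and MT, which were not analysed here. The same holds for the 526 genes of chromosome 8 that start after position 97565603 (GRCm38), among them the endothelial marker Cdh5 and the skeletal muscle marker Acta1, while Dusp4 lies before that position. Total counts were 6403699 to 13052870 per aorta and 16354880 to 28331314 per kidney. The 4 aortae richest in adipocyte markers stood apart. WT-SFD replicates 1 and 2 and KO-SFD replicate 1 summed to 35782, 26625 and 22426 FPM over 20 adipocyte genes, and KO-SFD replicate 2 to 6579 FPM. The other 10 aortae lay between 852 and 1816 FPM, and all 4 rich libraries were from SFD. WT-SFD replicates 1 and 2 and KO-SFD replicate 1 also had the lowest smooth muscle sums, 9791, 12089 and 10522 FPM. Their fibroblast sums, 2125, 1818 and 1737 FPM, were likewise the lowest. KO-SFD replicate 2 had 15724 FPM of smooth muscle and 3636 FPM of fibroblast markers.

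Compared per kilobase of merged exon, the members covered a wide range of levels in the kidney. Over all 16 kidneys the mean FPM per kb was highest for Dusp6 (15.7) and Spry1 (13.6), then Dusp4 (9.70), Etv5 (6.75), Spry2 (6.63) and Spred1 (4.78), and lowest for Spry4 (1.75), Dusp5 (1.39) and Etv4 (1.09). This order pools the diets, and parts of it turned between groups. Spry1 was above Dusp6 on SFD in both genotypes (14.1 against 13.5 FPM per kb in WT, 12.1 against 10.02 in KO) and below it on HFD. Etv5 was below Spry2 on SFD (4.75 against 6.38 in WT, 3.44 against 6.23 in KO) and above it on HFD. Etv4 was the lowest member on SFD in both genotypes but lay above Spry4 and Dusp5 in KO-HFD (2.34 against 2.06 and 1.89). In the aorta the mean FPM per kb over 14 libraries was highest for Dusp6 (5.74), Spred1 (5.23), Spry2 (4.14) and Spry1 (3.998). It was lowest for Dusp4 (1.03), Dusp5 (0.803) and Etv4 (0.242). Here too the order pools the groups. Spry1 was above Spry2 in WT-SFD (3.71 against 3.63) and KO-HFD (4.10 against 3.33), and below it in WT-HFD and KO-SFD. The place of Dusp4 moved with the group, from 2.24 FPM per kb in WT-SFD, above Spry4 (1.78), and 1.53 in KO-SFD to 0.477 in WT-HFD and 0.304 in KO-HFD, below Dusp5 (0.827 and 0.664). Etv4 had 0 to 10 counts per aorta and did not pass the filter on low counts, so 8 of 9 members were tested in the aorta and 9 of 9 in the kidney. The single aorta without an Etv4 count, WT-SFD replicate 3, allows a level of up to 0.433 FPM (3 counts, counting error only).

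The promoters of Dusp6 and Etv5 are shown because these genes were called together in the KO kidney, described next. Each runs from 250 bases before to 50 bases after a start in RefSeq (GRCm38.p6), and the capitals mark the bases from the start on. The Dusp6 promoter is chr10:99262981-99263280 on the plus strand, and the first of the Etv5 entries is chr16:22439521-22439820 on the minus strand.
Dusp6: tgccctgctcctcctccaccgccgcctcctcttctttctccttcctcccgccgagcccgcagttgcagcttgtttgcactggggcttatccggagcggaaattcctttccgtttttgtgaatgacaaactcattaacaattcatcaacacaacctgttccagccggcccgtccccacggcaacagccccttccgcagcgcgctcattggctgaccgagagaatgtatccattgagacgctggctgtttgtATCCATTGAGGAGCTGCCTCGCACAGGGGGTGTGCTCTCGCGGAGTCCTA
Etv5: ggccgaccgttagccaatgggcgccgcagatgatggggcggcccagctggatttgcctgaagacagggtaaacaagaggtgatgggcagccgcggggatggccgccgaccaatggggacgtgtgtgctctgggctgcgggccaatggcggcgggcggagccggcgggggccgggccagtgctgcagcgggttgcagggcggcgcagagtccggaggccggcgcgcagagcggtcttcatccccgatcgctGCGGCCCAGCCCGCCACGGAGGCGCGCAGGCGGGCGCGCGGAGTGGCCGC
Neither holds the letters CCGGAA, a form of Ets site, or TGANTCA of an AP-1 site on either strand. Nor does either hold TGACGTCA of a cAMP response element or a CArG box, the site of serum response factor. Over all 32851 promoters of the same length, these are held by 14.9%, 7.81%, 1.79% and 1.63% in that order, and TGANTCA and TGACGTCA do not overlap as letters. Among the 7 promoters of 6 members, Dusp5 holds 2 CArG boxes and Spry2 holds 1 copy of CCGGAA. Dusp4 and Etv4 had no entry, and Spry4 was left out of this search. Only these exact letters were searched for, so other forms of an Ets site were not counted.

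Etv4 and Etv5 had the largest diet responses among the members in the kidney. Etv4 lies at chr11:101769742-101785371 (GRCm38, minus strand). In WT kidneys its level was 0.705, 2.14, 0.925 and 1.70 FPM on SFD and 4.12, 5.97, 3.41 and 3.97 FPM on HFD. In KO kidneys it was 0.482, 0.377, 0.869 and 0.601 FPM on SFD and 5.04, 7.61, 10.6 and 5.83 FPM on HFD. Every HFD kidney was above every SFD kidney of its genotype. Etv4 rose with HFD by 1.72 on the log2 scale in WT (SE 0.32, edgeR adjusted p = 0.0114) and by 3.61 in KO (SE 0.36, edgeR adjusted p = 5.2e-05). Without WT-SFD replicate 3 the WT value was 1.54 and lost its call (edgeR adjusted p = 0.0660). Its counts were low, at 7 to 38 per SFD kidney and 60 to 176 per HFD kidney.

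Etv5, at chr16:22381309-22439719 on the minus strand, was more abundant. Its level in WT kidneys was 24.9, 20.4, 15.01 and 17.6 FPM on SFD and 39.9, 35.7, 33.8 and 30.4 FPM on HFD. In KO kidneys the values were 16.8, 13.8, 11.2 and 14.6 FPM on SFD and 39.4, 29.8, 61.8 and 38.2 FPM on HFD. The diets did not overlap in either genotype, and KO-HFD replicate 3 had the highest level of both Etv4 and Etv5. Etv5 rose in KO by 1.58 on the log2 scale (SE 0.20, edgeR adjusted p = 4.0e-04). In WT the log2 fold change was 0.85 (SE 0.20, edgeR adjusted p = 0.0546), which missed the threshold. DESeq2 called it there (log2 fold change 0.84, adjusted p = 0.00643).

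**Figure D1:**
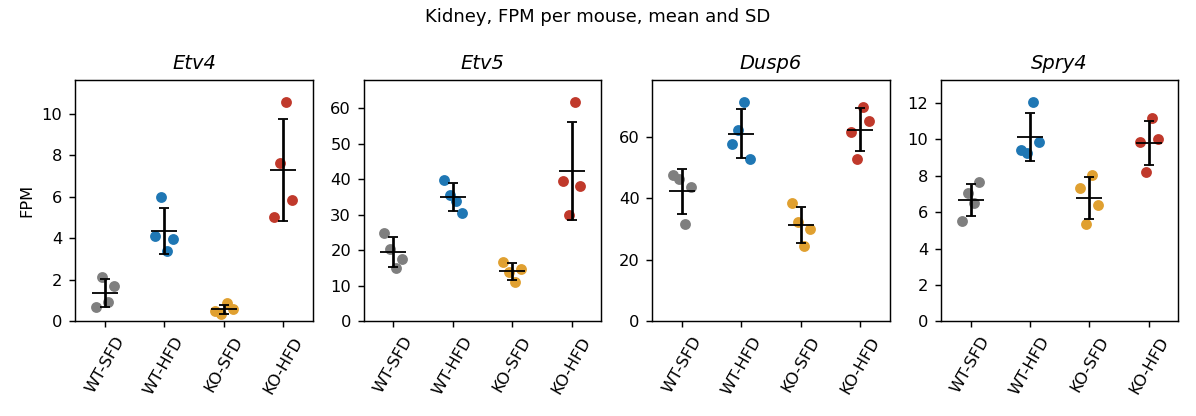
Level in the kidney (y axis, FPM, starting at 0) of Etv4, Etv5, Dusp6 and Spry4 in the 4 groups of 4 mice (x axis). Points are mice, and bars are the mean and SD. In each panel the HFD points of a genotype lie above its SFD points.

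Dusp6 encodes a cytoplasmic phosphatase that acts on ERK, and lies at chr10:99263231-99267489 on the plus strand. Its level in WT kidneys was 47.7, 46.4, 31.6 and 43.6 FPM on SFD and 57.6, 62.3, 71.4 and 52.9 FPM on HFD. In KO kidneys it was 38.6, 32.4, 24.6 and 29.9 FPM on SFD and 61.7, 52.9, 69.6 and 65.2 FPM on HFD. The diets did not overlap in either genotype. Dusp6 rose in KO by 0.99 on the log2 scale (SE 0.15, edgeR adjusted p = 0.00132), whereas in WT the log2 fold change was 0.53 (SE 0.15, edgeR adjusted p = 0.145).

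Dusp4 and Dusp5 encode nuclear phosphatases. Dusp4, at chr8:34807297-34819894, had 31.7, 27.3, 23.2 and 29.9 FPM in WT-SFD, 30.6, 26.0, 30.5 and 25.1 FPM in WT-HFD, 19.96, 16.1, 18.6 and 27.4 FPM in KO-SFD and 30.3, 28.7, 32.9 and 26.9 FPM in KO-HFD kidneys. Only KO-SFD replicates 1, 2 and 3 lay below 23 FPM, and KO-SFD replicate 4 lay among the other groups. The log2 fold change with HFD was 0.00 in WT (SE 0.14, edgeR adjusted p = 0.999) and 0.53 in KO (SE 0.15, edgeR adjusted p = 0.0668). Without KO-SFD replicate 4 the KO value was 0.70 and edgeR's adjusted p was 0.00878. Dusp5, at chr19:53529109-53542431, was rarer, with means of 2.39 ± 0.679 FPM in WT-SFD, 3.48 ± 0.339 in WT-HFD, 3.202 ± 0.580 in KO-SFD and 4.67 ± 1.42 in KO-HFD (SD, n = 4 each). Its log2 fold change with HFD was 0.59 in WT and 0.52 in KO, with edgeR adjusted p values of 0.477 and 0.245, and the diets overlapped in both genotypes.

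Among the Sprouty genes, Spry4 had the largest log2 fold changes with HFD. It lies at chr18:38586247-38601415. Its level was 5.53, 7.04, 6.51 and 7.62 FPM in WT-SFD and 9.39, 9.24, 12.1 and 9.84 FPM in WT-HFD kidneys. In KO it was 7.33, 5.34, 8.03 and 6.39 FPM on SFD and 9.82, 8.22, 11.1 and 10.0 FPM on HFD. The diets did not overlap in either genotype, but edgeR's adjusted p was 0.0762 in WT (log2 fold change 0.60, SE 0.15) and 0.0854 in KO (0.52, SE 0.15). DESeq2 called both, with adjusted p values of 0.0129 and 0.0290.

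Spry1, Spry2 and Spred1 differed less between diets. Spry1, at chr3:37639947-37644598, ranged from 27.5 to 53.8 FPM over all 16 kidneys, and its log2 fold change with HFD was -0.04 in WT and 0.28 in KO (SE 0.15 in each). Spry2, at chr14:105891947-105896819, was the steadiest member in this tissue, with group means between 13.0 and 15.2 FPM and log2 fold changes of 0.07 and 0.22 (SE 0.10 in each). Spred1, at chr2:117121374-117182279, had log2 fold changes of 0.20 and 0.31 (SE 0.11 in each). None of these passed the threshold, with edgeR adjusted p values from 0.177 to 0.995.

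**Figure D2:**
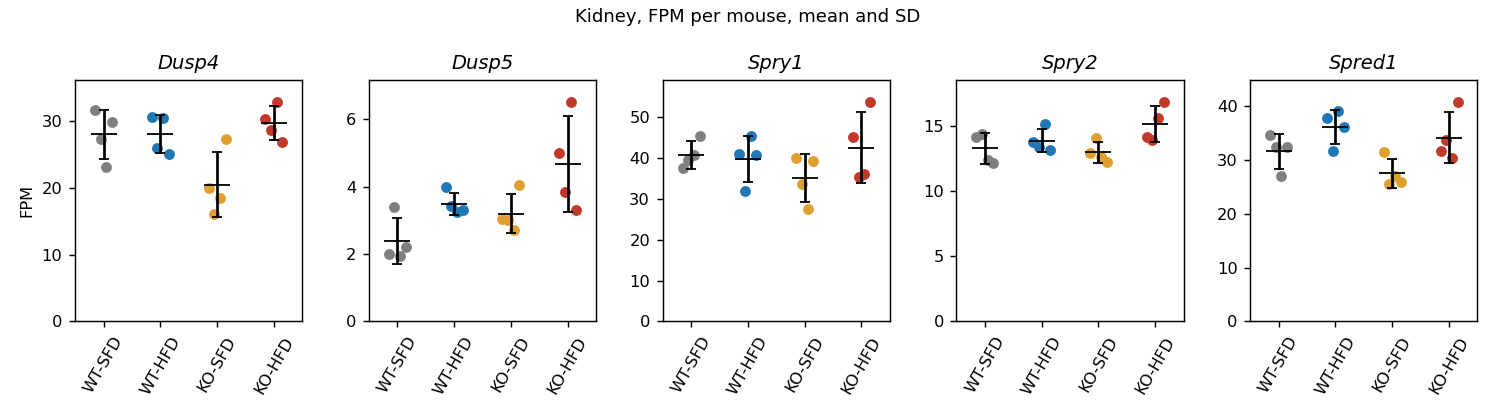
Level in the kidney (y axis, FPM, starting at 0) of Dusp4, Dusp5, Spry1, Spry2 and Spred1 in the 4 groups of 4 mice (x axis), with the mean and SD. The diets overlap in each panel, and 3 of 4 KO-SFD points of Dusp4 lie below the other groups.

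In all, 1 of 9 members (Etv4) was called higher in WT kidneys on HFD, where 0.818% of the 15034 genes tested were called higher. In KO kidneys 3 of 9 (Etv4, Etv5 and Dusp6) were called higher, where 1.57% of all genes were. At an unadjusted p of 0.05 the count was 5 of 9 members in WT, against 8.05% of all genes, and 8 of 9 in KO, against 16.1% of all genes. At the study's stricter limit of 0.001, no member passed in WT, against 0.173% of all genes, and Etv4 and Etv5 passed in KO, against 0.333%. DESeq2 called 3 members in WT (Etv4, Etv5 and Spry4), against 1.75% of all genes, and 5 in KO (Etv4, Etv5, Dusp6, Dusp4 and Spry4), against 4.62%. The diets did not overlap, with HFD higher, for 4 of 9 members in each genotype (Etv4, Etv5, Dusp6 and Spry4), against 3.02% of all genes in WT and 5.02% in KO. No member was lower on HFD without overlap, against 1.99% of all genes in WT and 3.85% in KO. The median log2 fold change of the 9 members was 0.53 in WT and 0.52 in KO, beside -0.00 over all genes tested in each. In the contrast averaged over both genotypes, chosen after the values had been seen, 4 members (Etv4, Etv5, Dusp6 and Spry4, log2 fold changes 2.67, 1.21, 0.76 and 0.56) were called higher, with edgeR adjusted p values of 5.9e-06, 4.6e-05, 2.7e-04 and 0.00446, against 3.01% of all genes.

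Other genes of the pathway changed in a few places. Among 21 other feedback genes and family members, 17 were tested, and Etv1, the remaining Pea3 factor, rose with HFD by 1.07 on the log2 scale in WT (SE 0.22, edgeR adjusted p = 0.0204) and by 1.87 in KO (SE 0.23, edgeR adjusted p = 3.9e-04). Its mean level went from 7.46 ± 1.80 to 15.6 ± 1.99 FPM in WT and from 4.36 ± 1.31 to 16.0 ± 4.06 FPM in KO (SD, n = 4 each). Errfi1, whose product binds and inhibits the EGF receptor, rose in KO by 1.30 (SE 0.20, edgeR adjusted p = 0.00139), and its log2 fold change in WT was 0.66 (edgeR adjusted p = 0.197). edgeR called no gene of this list lower. DESeq2 called Etv1 in WT and Etv1, Errfi1 and Spred2 in KO, where the log2 fold change of Spred2, a relative of Spred1, was 0.63 (SE 0.17, edgeR adjusted p = 0.0762). Among the 20 ERK cascade genes, 14 immediate early genes and 13 receptor genes tested, edgeR called 0 in either genotype. Among those with the smallest p in WT were Gab1 (log2 fold change 0.26), Jun (0.35), Junb (0.20), Erbb2 (-0.11) and Egfr (-0.14). In KO they included Rras (-0.39), Egr2 (1.16), Egr1 (1.33), Fgfr3 (0.37) and Egfr (-0.31). At an unadjusted p of 0.05 these 3 lists held 2 genes in WT and 6 in KO, beside 8.05% and 16.1% of all genes, and DESeq2 called 0 of them in either genotype.

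Some markers on the lists of nephron segments and fat moved with diet in the same kidneys. The proximal tubule list had 1 of 5 genes called in each genotype, Slc5a2, which encodes a glucose transporter. Its log2 fold change was 1.20 in WT (edgeR adjusted p = 0.00533) and 1.54 in KO (edgeR adjusted p = 5.9e-04). Those of Cubn, Lrp2, Slc22a6 and Slc34a1, none of them called, were -0.10, -0.14, -0.30 and -0.05 in WT. In KO the values of these genes were 0.07, 0.21, 0.17 and 0.35. Of the loop of Henle and distal tubule list, edgeR called 1 of 4 higher in KO (Slc12a3, log2 fold change 0.71), and DESeq2 also called Umod, the most abundant of them, whose log2 fold change was -0.59 (SE 0.18, edgeR adjusted p = 0.107). The median of the 4 in KO was -0.28. The list summed to 8074, 7487, 8066 and 7582 FPM in the KO-SFD and to 6274, 6381, 4218 and 5370 FPM in the KO-HFD kidneys, so that every KO kidney on HFD lay below every KO kidney on SFD. In WT the sums were 5870 to 7623 FPM on SFD and 5203 to 7064 FPM on HFD, which overlapped. Of the 4 collecting duct markers edgeR called 0 in either genotype, with 1 at an unadjusted p of 0.05 in WT and 0 in KO, and DESeq2 called Scnn1g in WT (edgeR log2 fold change -0.38, adjusted p = 0.113). Of the 6 leucocyte markers tested edgeR called 0 in either genotype, with 0 at an unadjusted p of 0.05 in WT and 3 in KO. DESeq2 called Ptprc in KO (edgeR log2 fold change 1.11, adjusted p = 0.133). The 3 in KO went both ways: Ptprc and Cd79a (1.65) had values above 0. Csf1r, the most abundant leucocyte marker, had -0.29, lower on HFD without overlap. Of 20 adipocyte markers, edgeR called 0 in WT (6 at an unadjusted p of 0.05) and 5 in KO, where Acaca, Lpl, Scd1 and Slc2a4 fell and Lep rose. DESeq2 called 2 of them in WT (Lpl and Slc2a4) and 7 in KO. Neither method called Adipoq, Plin1, Plin4, Cidec or Fabp4 in either genotype, and the diets overlapped for each. The 4 podocyte markers, of which Podxl was the most abundant, had log2 fold changes with a median of 0.45 in KO, with 3 of 4 higher at an unadjusted p of 0.05, and of 0.04 in WT, and edgeR called 0 of them in either genotype, as did DESeq2. Their sum was 134 to 161 FPM in the KO-SFD kidneys and 153 to 238 FPM in the KO-HFD kidneys. The adipocyte sum was highest in KO-SFD replicate 4 (4311 FPM) and lowest in KO-HFD replicate 4 (995 FPM), with Lpl the most abundant gene. KO-HFD replicate 3, highest in Etv4 and Etv5, had the lowest loop and distal tubule sum (4218 FPM) and the highest proximal tubule sum (15506 FPM) of all kidneys. With the proximal tubule mean as a covariate, the KO value of Dusp6 was 0.79 and lost its call (edgeR adjusted p = 0.0824). With the loop and distal tubule mean, the WT value of Etv4 was 1.58 and lost its call (edgeR adjusted p = 0.0515). With the podocyte mean, the KO values of Etv4, Etv5 and Dusp6 were 3.51, 1.43 and 0.89 and kept their calls. With any of the 5 marker covariates, Etv4 and Etv5 kept their calls in KO. The lists behind these means hold genes that moved with diet themselves, among them Slc5a2, Slc12a3 and Lpl. These fits therefore cannot separate tissue makeup from diet. The part of the markers in the diet values was not tested further.

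**Figure D3:**
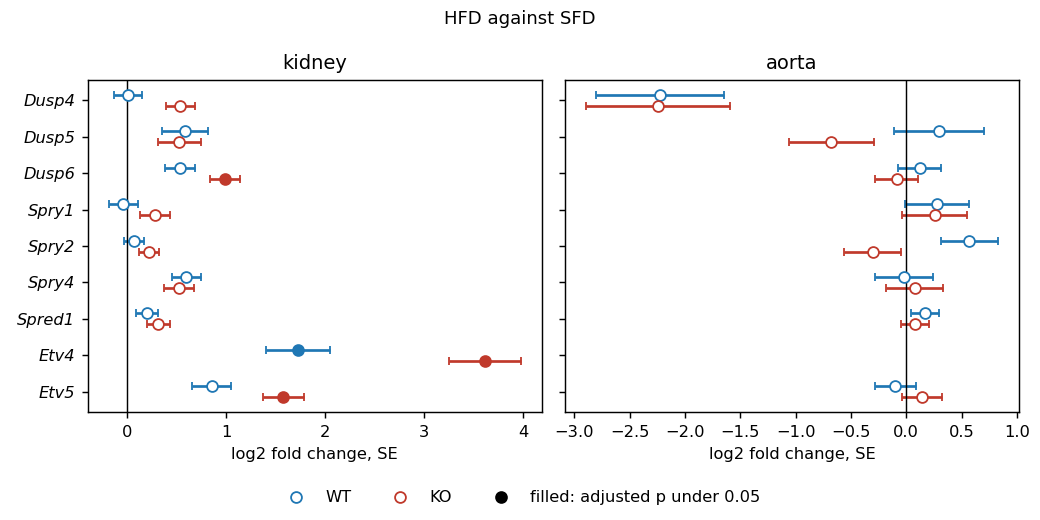
Log2 fold change of HFD against SFD (x axis, error bars 1 SE) for each member (y axis) in kidney (left) and aorta (right), in WT and KO. Filled points have an edgeR adjusted p under 0.05. Filled points occur for Etv4, Etv5 and Dusp6 in the kidney, and none occur in the aorta, where Etv4 was not tested.

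Whether genotype shifted these genes was asked on each diet. In the kidney on SFD, edgeR called 0 of 9 members, against 0.0133% of all genes, and DESeq2 called 0, against 0.173%. At an unadjusted p of 0.05, 4 members were lower in KO, against 4.16% of all genes: Dusp4 (log2 fold change -0.45, SE 0.14), Dusp6 (-0.43, SE 0.15), Etv4 (-1.17, SE 0.47) and Etv5 (-0.46, SE 0.21), with edgeR adjusted p values from 0.444 to 0.568. No member separated WT-SFD from KO-SFD without overlap, against 3.98% of all genes. The genes of the other lists with the smallest p here were Ccnd1 (0.54), Etv1 (-0.77), Ksr2 (-0.56), Rras (0.31), Atf3 (0.58), Egr1 (-1.52), Fgfr3 (-0.29) and Fgfr2 (0.48), none of them called. Markers of other cells differed in the same kidneys, with edgeR and DESeq2 calling 0 of these lists. All 4 podocyte markers were lower in KO-SFD at an unadjusted p of 0.05 (median log2 fold change -0.48, 2 of 4 without overlap). All 5 proximal tubule markers had log2 fold changes below 0 (median -0.24, 1 at an unadjusted p of 0.05). The loop and distal tubule sums were 7487 to 8074 FPM in KO-SFD and 5870 to 7623 FPM in WT-SFD. Smooth muscle sums were 131 to 160 FPM in KO-SFD and 118 to 150 FPM in WT-SFD. The sums of both lists overlapped between the genotypes. All 6 fibroblast markers (median 0.38, 0 at an unadjusted p of 0.05) and 18 of 20 adipocyte markers (median 0.79, 3 at an unadjusted p of 0.05) had values above 0. Their part in the lower values of the 4 members was not tested.

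On HFD the genotypes of the kidney were close. edgeR called 0 of 9 members and 0% of all genes, and DESeq2 called 0 members and 0.00665% of all genes. Etv4 alone had an unadjusted p under 0.05, with KO higher (log2 fold change 0.72, SE 0.26, edgeR adjusted p = 1.00), against 0.925% of all genes, and the groups overlapped. The group order of Etv4 means was therefore KO-SFD, WT-SFD, WT-HFD and KO-HFD, where neighbours of the same diet overlapped and the diets did not. No member separated the genotypes without overlap on HFD, against 1.32% of all genes. Among the other lists the smallest p values included those of Errfi1 (0.35), Phlda1 (0.25), Mapk3 (0.13), Egr2 (0.50), Atf3 (0.23), Igf1r (-0.31) and Met (-0.21), none of them called.

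The difference of the diet effect between KO and WT was tested directly. For Etv4 it was 1.89 on the log2 scale (SE 0.53), for Etv5 0.72 (SE 0.28), for Dusp4 0.53 (SE 0.20) and for Dusp6 0.46 (SE 0.21), each a larger rise or value in KO, and for Spry4 -0.07 (SE 0.21). edgeR called 0 of 9 members and 0% of all genes, with adjusted p = 1.00 for each, and DESeq2 called 0 members, again beside 0.00665% of all genes. At an unadjusted p of 0.05 the count was 4 members, against 1.70% of all genes with a positive difference. The median difference over the 9 members was 0.32, beside 0.01 over all genes tested. The comparisons in each genotype and between genotypes share groups, so their values are not independent of each other. In the other lists the smallest p belonged to Etv1 (0.80), Ccnd1 (-0.42), Rras (-0.35), Grb2 (0.15), Egr1 (1.38), Egr2 (0.84), Fgfr3 (0.37) and Fgfr2 (-0.45).

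In the aorta, whose medial smooth muscle is among the smooth muscle in which the Cre acts, edgeR called no member in any of the 5 comparisons. With HFD in WT it called 0 of 8 members and 0% of all genes. DESeq2 called Dusp4 alone of the members, against 4.50% of all genes. Without WT-SFD replicate 3, edgeR called Dusp4 (log2 fold change -2.69) and Spry2 (0.96), against 12.4% of all genes called in that fit. That left in WT-SFD only the libraries with 35782 and 26625 FPM of adipocyte markers, whereas replicate 3 had 1268 FPM. At an unadjusted p of 0.05 the members were Dusp4 and Spry2, against 17.0% of all genes. In KO it again called 0 of 8 and 0% of all genes, DESeq2 called 0 (0.0541% of all genes), and Dusp4 alone had an unadjusted p under 0.05, against 5.11% of all genes with a lower level. The median log2 fold change of the 8 members was 0.15 in WT and -0.00 in KO, beside -0.01 and -0.00 over all genes. No member separated the diets in WT without overlap, against 8.96% of all genes. In KO, Dusp4 and Dusp5 were lower on HFD without overlap, against 3.59% of all genes.

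Dusp4 varied most. Its level was 7.10, 10.2 and 1.16 FPM in WT-SFD and 1.22, 1.91, 1.46 and 0.639 FPM in WT-HFD aortae. In KO it was 7.50, 3.34 and 1.72 FPM on SFD and 0.856, 0.751, 1.04 and 0.684 FPM on HFD. The 4 aortae above 3 FPM were the 4 richest in adipocyte markers, and WT-SFD replicate 3, which was not, lay among the WT-HFD values. The log2 fold change with HFD was -2.22 in WT (SE 0.58, edgeR adjusted p = 0.0734) and -2.24 in KO (SE 0.65, edgeR adjusted p = 0.526). Averaged over both genotypes it was -2.23 (SE 0.44, edgeR adjusted p = 0.0168), a call in a contrast chosen after the values had been seen, against 3.58% of all genes called lower. In the same contrast 18 of 20 adipocyte markers were called lower, among them Adipoq at -3.55 and Scd1, the most abundant of them, at -4.40. The call was also lost without WT-SFD replicate 1, WT-SFD replicate 2 or KO-SFD replicate 1, with edgeR adjusted p values of 0.0573, 0.0604 and 0.0906. Without the 4 rich libraries the averaged value was -0.40 (SE 0.47, edgeR adjusted p = 0.939), the WT value was 0.21 and the KO value was -1.01. Only 1 mouse was then left in each SFD group, and the fit assumes that it varies like the mice of the HFD groups. With the adipocyte mean as a covariate the averaged value was -0.65 (edgeR adjusted p = 0.880).

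**Figure D4:**
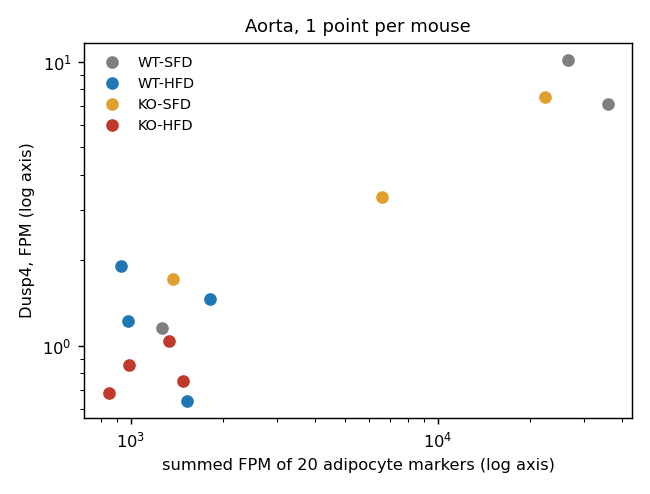
Dusp4 level (y axis, FPM, log axis) against the summed level of 20 adipocyte markers (x axis, FPM, log axis) in the 14 aortae, 1 point per mouse. The 4 libraries with 6579 FPM or more of adipocyte markers are those above 3 FPM of Dusp4.

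Spry2 was the member that separated the genotypes on HFD. Its level was 5.19, 6.26 and 11.3 FPM in WT-SFD, 8.57, 9.65, 13.1 and 13.4 FPM in WT-HFD, 10.6, 7.24 and 7.89 FPM in KO-SFD and 7.21, 8.17, 5.68 and 6.70 FPM in KO-HFD aortae. All 4 KO-HFD aortae lay below all 4 WT-HFD aortae. The log2 fold change of KO against WT was -0.69 on HFD (SE 0.24, unadjusted p = 0.0113 and adjusted p = 0.754 in edgeR) and 0.19 on SFD (SE 0.28). The difference of the diet effects was -0.87 (SE 0.37, unadjusted p = 0.0316 and adjusted p = 0.998 in edgeR). Without the 4 adipocyte-rich libraries that difference was -0.18, with only 1 mouse left in each SFD group. All 4 were on SFD, so the HFD comparison lost no mouse. Its unchanged value of -0.69 therefore says nothing about adipocyte content.

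Dusp5 was low in the aorta. Its level was 1.36, 0.923 and 2.89 FPM in WT-SFD, 3.06, 1.31, 1.77 and 2.05 FPM in WT-HFD, 2.68, 2.93 and 2.27 FPM in KO-SFD and 1.47, 2.07, 1.12 and 1.92 FPM in KO-HFD aortae. In KO all HFD aortae lay below all SFD aortae, and in WT the diets overlapped. The log2 fold change with HFD was -0.68 in KO (SE 0.38, edgeR adjusted p = 0.690) and 0.30 in WT (SE 0.41, edgeR adjusted p = 0.768). The difference between them was -0.97 (SE 0.56, unadjusted p = 0.103 and adjusted p = 0.998 in edgeR). Among the remaining members of the aorta, Dusp6 had group means between 17.1 and 19.0 FPM, Spred1 between 32.5 and 36.9, Etv5 between 8.57 and 9.76, Spry4 between 8.38 and 9.29 and Spry1 between 10.1 and 13.1 FPM. Neither Dusp5 nor any of these passed the threshold in any comparison. In KO against WT on SFD, edgeR called 0 of 8 members and 0.0811% of all genes, DESeq2 called 0 members and 0.142% of all genes, and no member had an unadjusted p under 0.05 or groups that did not overlap, against 6.54% and 8.57% of all genes. On HFD the count was 0 of 8 members, again beside 0.0811% of all genes, DESeq2 called 0, beside 0.270%, and Spry2 alone passed an unadjusted 0.05 and separated the groups, with KO lower, against 2.41% and 2.03% of all genes. For the difference of diet effects edgeR called 0 of 8 and 0% of all genes, DESeq2 called 0, beside 0.0135%, and Spry2 alone passed an unadjusted 0.05, against 2.12% of all genes with a negative difference.

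**Figure D5:**
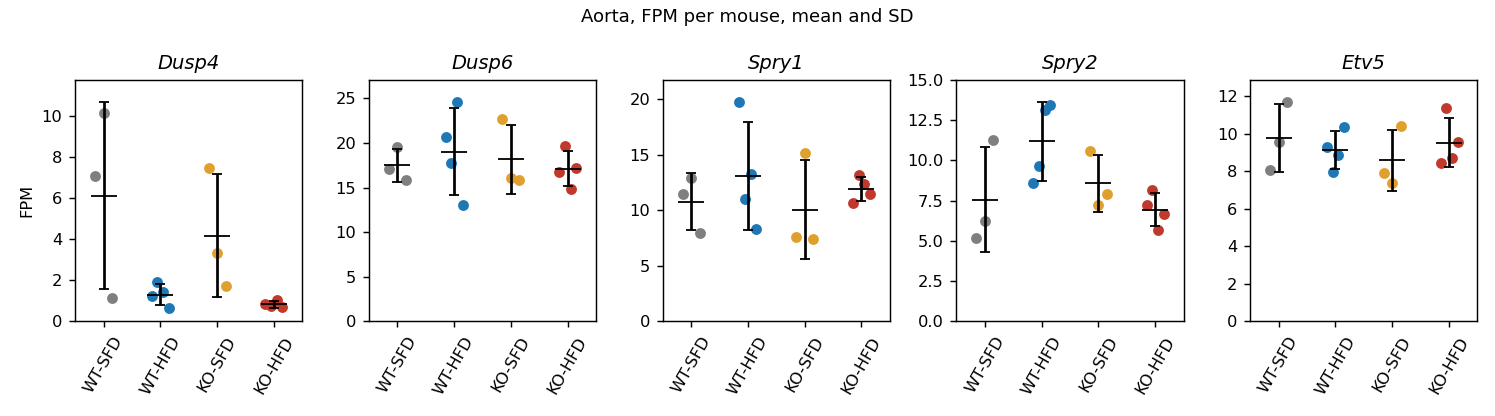
Level in the aorta (y axis, FPM, starting at 0) of Dusp4, Dusp6, Spry1, Spry2 and Etv5 in the 4 groups of 3 or 4 mice (x axis), with the mean and SD. Dusp4 is above 3 FPM in 4 SFD aortae, and the 4 KO-HFD points of Spry2 lie below the 4 WT-HFD points.

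In the 5 comparisons of the aorta edgeR called 0 of the other pathway genes, and DESeq2 called Erbb3, Flt1 and Kdr with HFD in WT and Egfr between genotypes on HFD. In the contrasts averaged after the values had been seen, edgeR called 3 of 12 receptor genes lower with HFD, Flt1 (-0.80), Kdr (-2.75) and Met (-1.87), and Egfr lower in KO. DESeq2 called Erbb3 as well in the first of these. That is the contrast in which 18 of 20 adipocyte markers were called lower and in which the 4 adipocyte-rich libraries were all on the SFD side. Without those 4 libraries the averaged values were -0.15 for Flt1 (SE 0.14, edgeR adjusted p = 0.915), -0.06 for Kdr (SE 0.37, edgeR adjusted p = 0.991) and -0.00 for Met (SE 0.37, edgeR adjusted p = 1.00), and none was called. The averaged value of Erbb3 was -0.76 (SE 0.39, unadjusted p = 0.0675 in edgeR). The WT values of the 3 genes DESeq2 had called there were then -0.18 for Flt1 (SE 0.20), -1.17 for Erbb3 (SE 0.55) and 0.41 for Kdr (SE 0.55), with the sign of Kdr turned, and none was called. With HFD in WT the smallest p belonged to Dusp8 (0.70) and Dusp1 (0.77) of the feedback list, Hras (-0.33) and Sos1 (-0.22) of the cascade, Jun (0.68) and Ier2 (0.68) of the immediate early genes, and Erbb3 (-1.89, edgeR adjusted p = 0.0674) and Flt1 (-1.20, edgeR adjusted p = 0.0683) of the receptors. In KO they were Dusp10 (-0.61), Phlda1 (0.58), Ptpn11 (0.23), Sos1 (-0.18), Fosb (0.79), Ier3 (-0.38), Kdr (-2.66) and Met (-1.99). Between genotypes on SFD they included Dusp10 (0.52), Ccnd1 (0.42), Hras (-0.40), Egr2 (0.89), Ier3 (0.63), Egfr (-0.64) and Erbb3 (-1.39). On HFD they were Il17rd (-0.32), Phlda1 (0.61), Ptpn11 (0.11), Shc1 (-0.12), Atf3 (-1.75), Jun (-0.62), Egfr (-0.70) and Erbb2 (-0.15). For the difference of diet effects they were Dusp10 (-0.87), Dusp8 (-0.68), Ptpn11 (0.25), Hras (0.52), Jun (-0.81), Atf3 (-1.62), Erbb3 (1.53) and Fgfr3 (0.70), all as log2 values.

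The gene whose profile over the libraries was most like that of a member is given as a description, since the libraries share diet, tissue makeup and depth. In the kidney (Pearson r of log2 CPM over 16 libraries) it was Gulo for Etv4 (0.964), Lipa for Etv5 (0.960), Etv5 for Dusp6 (0.944), Dgkb for Spry4 (0.932), Prmt6 for Dusp4 (0.915), Vps35 for Spred1 (0.899), Efhd2 for Dusp5 (0.876), Marcks for Spry1 (0.875) and Gm14276 for Spry2 (0.822). In the aorta (14 libraries), for the 6 members given, it was Ccdc144b for Dusp4 (0.964), Dhrs3 for Spry1 (0.891), Zfp334 for Spred1 (0.874), Rapgefl1 for Dusp6 (0.861), Plekhb2 for Spry4 (0.828) and Cacna1i for Dusp5 (0.817). In the kidney the nearest gene of Dusp6, Etv5, was itself a member.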

How the data were processed

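Aorta and kidney RNA was depleted of ribosomal RNA and sequenced, the aortae paired-end at a university unit and the kidneys by a company. The deposited values are raw counts per gene, made by the authors with cutadapt, TopHat (mm10, GRCm38) and featureCounts. Strand setting and multi-mapping are not given in the sources used here. All 30 columns were mapped through the sample titles, and 0 were left over. Counts were scaled by TMM, filtered with filterByExpr by group and tested with edgeR 4.0.16 (glmQLFit with legacy=FALSE, glmQLFTest; R 4.3.3), 1 coefficient per group, each tissue apart, with Benjamini-Hochberg adjustment over the 14796 (aorta) or 15034 (kidney) genes tested and a call at 0.05. FPM are edgeR CPM on TMM-corrected library sizes. Log2 CPM used a prior count of 2. Positions and exon lengths came from GENCODE vM21.

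The alternatives were DESeq2 1.42.0, RLE factors, library totals, no count filter, only the groups compared, an adipocyte covariate in the aorta and each library left out. Averaged contrasts, kidney marker covariates and the aorta without 4 libraries were added after seeing the data. The steps were tested on simulated data. No 2 libraries were copies (smallest chi-square per gene 8.38 among 91 aorta pairs and 9.21 among 120 kidney pairs). Members and lists were chosen with earlier results of these data known. Named genes are the 9 members, Egfr, called list genes, the 2 genes of smallest p per list and comparison, and the gene of highest correlation. A few genes that this rule names are not reported here. Libraries are separate mice by their numbers, and p values measure the spread between these mice.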

Additional observations from a re-analysis of the deposited data

Results flagged for a closer look

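Among 60 sets of 4 libraries (10 genes in the groups of 4), 1 library stood apart from the rest of its group. Dusp5 in the kidney was 3.39 FPM in WT-SFD replicate 2, while the other 3 WT-SFD kidneys lay between 1.95 and 2.20 FPM. About 5% of such groups are marked by chance. Without it the log2 fold change of Dusp5 with HFD in WT was 0.77. The same kidney had the highest collecting duct marker sum (1848 FPM) and the highest Etv4 level (2.14 FPM) of the WT-SFD group, and the part of either in the Dusp5 value was not tested.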

How the results depend on the processing

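With HFD in WT kidneys, 1 member was called, and DESeq2 called 3 (Etv4, Etv5 and Spry4; 1.75% of all genes). Library totals, no filter on low counts and fitting the compared groups alone each called 2 (Etv4 and Etv5), beside 1.06%, 0.613% and 0.819% of all genes. The loop and distal tubule covariate called 0 (0.871% of all genes), and leaving out each library gave 0 to 2, with 0 without WT-SFD replicate 3 (Etv4 edgeR adjusted p = 0.0660). In KO kidneys DESeq2 called 5 members against 3 (4.62% of all genes), the adipocyte covariate called 4 (2.14%), the proximal tubule covariate called 2 (1.40%, without Dusp6), and leaving out each library gave 3 to 4. In WT aortae, 0 members were called, DESeq2, library totals and no filter each called 1 (Dusp4), beside 4.50%, 2.11% and 1.29% of all genes, and leaving out each library gave 0 to 2, with Dusp4 and Spry2 called without WT-SFD replicate 3 (12.4% of all genes), which left only the adipocyte-rich libraries in WT-SFD. For the averaged diet effect in the aorta, the adipocyte covariate and the removal of the 4 rich libraries each gave 0 against 1, and leaving out each library gave 0 to 1, with 0 without WT-SFD replicate 1, WT-SFD replicate 2 or KO-SFD replicate 1. The cause was not tested. Egfr in KO against WT aortae on HFD was not called at -0.70. It was called by DESeq2 (-0.70), by fitting the compared groups alone (-0.70) and with the adipocyte covariate (-0.72). Removing the rich libraries, all on SFD, took no mouse from this comparison, so its value there (-0.70) could not show a dependence on them. The averaged value of Egfr lost its call with library totals (-0.49) and was -0.73 to -0.60 with each library left out. In the kidney, where Egfr was not called, its value on HFD was 0.0797 with the collecting duct covariate, and with each library left out it was -0.0095 to 0.164 on SFD and -0.185 to 0.0248 on HFD. Averaged over diets it was -0.0015, and 1.436e-04 by DESeq2, 2.445e-04 with RLE factors, 0.107 with the collecting duct, 0.0493 with the loop, 0.0232 with the proximal tubule, 0.0233 with the adipocyte and 0.0830 with the podocyte covariate, and -0.0502 to 0.0556 with each library left out. No called value changed sign. Uncalled log2 fold changes changed sign under an alternative in 100 cases in the aorta and 68 in the kidney. No paired analysis was possible within a tissue, where each library is a different mouse by its number. The 3 mice sampled in both tissues were not used as pairs, since the tissues were never compared by a test. Depth limits Etv4 in the aorta, which was too low to test.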
